A study of Mus musculus with 18 samples.

Results

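The proteasome genes were examined in bulk RNA-seq of mouse quadriceps. They were taken as all protein-coding genes with an exon length above 0 whose symbol starts with Psma, Psmb, Psmc, Psmd, Psme, Psmf or Psmg followed by a digit, which gave 50 of the 31665 genes with an exon length. By role they comprised 7 alpha ring subunits, 4 non-catalytic beta subunits, 3 constitutive catalytic subunits, 3 immunoproteasome catalytic subunits, the 2 interferon-inducible subunits of the 11S activator, 3 other activators or inhibitors, 6 ATPases and 11 non-ATPase subunits of the 19S particle, 7 assembly chaperones and 3 tissue-restricted subunits or gene copies. The last member, Psmc3ip, matches the naming rule but encodes a partner of a 19S ATPase that acts in meiotic recombination and is no proteasome subunit.

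The study set healthy C57BL/6J mice (WT) against dyW mice, strain B6.129S1(Cg)-Lama2tm1Eeng/J, which carry a knock-out of the gene for laminin alpha 2, a basement membrane protein whose loss causes a congenital muscular dystrophy. The labels' growth protocol calls the mutants hemizygotes. Each of the 18 libraries came from 1 mouse: 3 untreated WT and 4 untreated dyW mice, 3 WT and 3 dyW mice given PBS, and 2 WT and 3 dyW mice given TD139, an inhibitor of galectin-3, a lectin made by macrophages among other cells. The mice are of both sexes in every group, with 1 female each. Age is labelled 5 weeks for untreated and 3 weeks for PBS and TD139 mice, although the protocol places collection at 5 weeks for all, so cohort, handling and age label cannot be told apart. The labels used here give no dose, route or duration for TD139.

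The proteasome degrades ubiquitin-tagged proteins inside a 20S barrel of stacked alpha and beta rings, capped at its ends by the 19S particle, which recognises and unfolds the substrate, or by activators such as 11S. The beta subunits Psmb5, Psmb6 and Psmb7 carry the cutting sites in most cells. Interferon induces Psmb8, Psmb9 and Psmb10, which replace them in the immunoproteasome, as well as Psme1 and Psme2 (PA28 alpha and beta), and these subunits favour peptides for display on MHC class I. Leukocytes hold immunoproteasomes at rest, whereas muscle fibres mainly hold the constitutive form and use it, with the ligases Trim63 and Fbxo32, to break down fibre proteins during wasting.

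Promoter sequence is shown for 2 of the inducible catalytic genes and for 2 constitutive ones. An activator and a chaperone gene that also rose in untreated mice are added. Each stretch was picked to hold the motif marked in it, so the display does not compare motifs between kinds of gene. The sequences are from RefSeq on GRCm38.p6 (the files use mm10, the same assembly), written 5′ to 3′ on the gene's strand with positions counted from the start site. Psmb8 is shown for chr17:34198045-34198194 (plus strand), with capitals on a GAS-type element TTCNNNGAA at position -97. Psmb9 is shown for chr17:34187331-34187555 (minus strand), the whole stretch between its start and the start of the peptide transporter gene Tap1 on the other strand, with capitals on a GC box (GGGCGG) at position -55. Psme1 (chr14:55578494-55578523, plus strand) and Psmg4 (chr13:34162964-34162993, plus strand) are shown for their first transcribed bases, with capitals on an ISRE-type element (GAAA, any 2 bases, GAAA), which Psme1 holds as its reverse complement. Psmb5 (chr14:54617996-54618095, minus strand) and Psmb6 (chr11:70525257-70525356, plus strand) carry in capitals an ARE-type element TGACNNNGC, the kind of letters bound by Nrf1 and Nrf2.
Psmb8: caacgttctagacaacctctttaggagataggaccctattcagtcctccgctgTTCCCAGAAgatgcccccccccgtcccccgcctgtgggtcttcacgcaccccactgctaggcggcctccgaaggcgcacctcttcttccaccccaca
Psmb9: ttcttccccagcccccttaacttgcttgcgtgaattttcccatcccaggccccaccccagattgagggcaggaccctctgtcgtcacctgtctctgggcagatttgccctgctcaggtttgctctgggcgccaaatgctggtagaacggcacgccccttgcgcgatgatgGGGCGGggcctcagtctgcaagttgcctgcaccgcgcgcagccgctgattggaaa
Psme1: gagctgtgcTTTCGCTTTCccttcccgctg
Psmg4: tcggcgcgcgcatctGAAAGTGAAAgagcg
Psmb5: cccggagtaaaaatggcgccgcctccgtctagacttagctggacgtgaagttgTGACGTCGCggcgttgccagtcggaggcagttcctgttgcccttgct
Psmb6: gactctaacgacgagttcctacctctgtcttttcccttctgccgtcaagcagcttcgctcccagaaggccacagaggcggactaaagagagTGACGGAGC
Windows of 300 bases (250 before the start and 50 from it) were given for 42 of the 50 members and searched on both strands. The GAS-type letters were in 3 of these 42 members (Psmb8, Psmd2 and Psmg1), 1 of them inducible, against 8.3% of all 32851 windows. ISRE-type letters were in 5 members (Psme1, Psmg4, Psmb3, Psmd4 and Psmd9), 1 of them inducible, against 3.44% of windows. Psmb3, Psmd4 and Psmd9 were not called in untreated mice. Psmd10, which rose there, held only the GC box of the motifs searched. The inducible Psmb9, Psmb10 and Psme2 held neither GAS-type nor ISRE-type letters. ARE-type letters were in 6 members (Psmb5, Psmb6, Psmc6, Psmd12, Psmd9 and Psme4) and in none of the 5 inducible ones, against 12.4% of windows. The shares of members with GAS-type and with ARE-type letters were close to those of all windows. The GC box was in 23 members, 3 of them inducible, against 35.7% of windows. These matches describe letters in the window and do not show a bound site.

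The inducible genes lie in pairs. Psmb9 (chr17:34181988-34187764, minus strand) and Psmb8 (chr17:34197721-34201454, plus strand) are 9956 bases apart in the MHC, and Psme1 (chr14:55578123-55581529, plus strand) and Psme2 (chr14:55587441-55591113, minus strand) are 5911 bases apart. Psmb10 stands alone (chr8:105935735-105938444, minus strand). The deposited span of Psmb9 runs past the start of Tap1 on the other strand, 225 bases from the RefSeq start of Psmb9, and whether the counting used strand is not given in the sources used here. Of the reads assigned to Psme2, 60.3% were unique, and of those assigned to its copy Psme2b 47.9%, so reads may be split between them. Unique shares were also below 100% for Psmb3 (76.8%), Psma5 (80.7%), Psmd1 (90.3%), Psmg3 (92.3%) and Psmd2 (95.8%).

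Depth was 15.8 to 45.2 M (mega) exon reads per library, with PBS-treated dyW replicate 1 the shallowest, and the 50 members took 0.331% to 0.548% of them. The targeted gene was low where the labels say so: Lama2 was 4.75 ± 0.279 RPKM (reads per kilobase of exon, scaled to the library's total; SD, n = 3) in untreated WT and 0.707 ± 0.119 (SD, n = 4) in untreated dyW muscle. Lgals3, the gene of galectin-3, was 1.65 RPKM in untreated WT and 47.9 in untreated dyW muscle. The 10 most abundant genes took 23.6% to 28.0% of reads in untreated WT and 15.3% to 20.4% in untreated dyW libraries, and the TMM scaling factors that correct for such composition were 0.796 to 0.926 and 1.15 to 1.35. WT PBS replicate 1 stood apart from the other WT PBS libraries, with a factor of 1.02 against 0.812 and 0.837 and a summed endothelial marker level of 115.5 RPKM against 50.7 and 52.1. Fold changes below were fitted on TMM-scaled counts, and levels are RPKM as deposited, so ratios of levels are larger than the fitted fold changes between dyW and WT.

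In untreated muscle, all 5 interferon-inducible members rose in dyW mice, with a median log2 fold change of 1.15, while the other 42 members tested had a median of 0.00. Across the family, 7 members rose and 5 fell of 47 tested at an adjusted p under 0.05 (edgeR's quasi-likelihood test, Benjamini-Hochberg adjustment over all genes), which is less than the 49.8% of all 14846 genes tested that were called. Of all genes, 24.7% were called higher and 25.1% lower, and the median gene was at 0.03. Among members tested, Psmb8 rose most and Psme4 fell most, the latter a nuclear proteasome activator. In whole muscle, more cells of a type and more RNA per cell cannot be told apart.

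Psmb8, the inducible counterpart of the chymotrypsin-like Psmb5, was at 1.59, 1.32 and 1.33 RPKM in the untreated WT mice and at 4.78, 5.51, 7.17 and 5.05 in the dyW mice. Every dyW mouse was above every WT mouse, and the fitted rise was 1.44 on the log2 scale (SE 0.14, 2.71-fold, 95% interval 1.12 to 1.76, adjusted p = 0.0002097). Psmb10, which replaces the trypsin-like Psmb7, was at 3.94, 2.46 and 2.26 RPKM in WT and at 6.69, 8.81, 15.6 and 12.7 in dyW mice. The dyW values spread more than those of Psmb8, and the rise was 1.37 (SE 0.27, 2.59-fold, adjusted p = 0.00368). Psmb9, which replaces the caspase-like Psmb6, was the least abundant of the 3, at 0.699, 0.389 and 0.467 RPKM in WT and 1.37, 1.55, 2.29 and 1.50 in dyW mice. Its groups were apart as well, with a rise of 1.15 (SE 0.22, 2.22-fold, adjusted p = 0.003001).

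The 11S subunits started from higher levels. Psme2 was at 9.35, 6.22 and 7.88 RPKM in WT and 17.2, 22.5, 26.5 and 23.7 in dyW mice, a rise of 0.98 (SE 0.15, 1.97-fold, adjusted p = 0.0009655). Psme1, its partner in the ring, was at 12.2, 9.15 and 8.88 RPKM in WT and 16.3, 19.7, 21.1 and 20.4 in dyW mice. The rise of Psme1 was the smallest of the 5, at 0.40 (SE 0.11, 1.32-fold, adjusted p = 0.01902), and its call was lost without WT replicate 2 (0.37, adjusted p = 0.06848) or WT replicate 3 (0.33, adjusted p = 0.08702). After TMM scaling the groups of all 5 genes remained apart with dyW above, as in 25.4% of all genes. In the authors' deposited table of this comparison, 4 of the 5 were past an FDR-adjusted p of 0.05, with log2 fold changes of 1.41 for Psmb8, 1.35 for Psmb10, 1.12 for Psmb9 and 0.95 for Psme2, while Psme1 was at 0.37 with 0.05723. That table called 6 members higher and 4 lower, against 32.0% of its 22297 genes (15.7% higher, 16.3% lower).

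**Figure D1:**
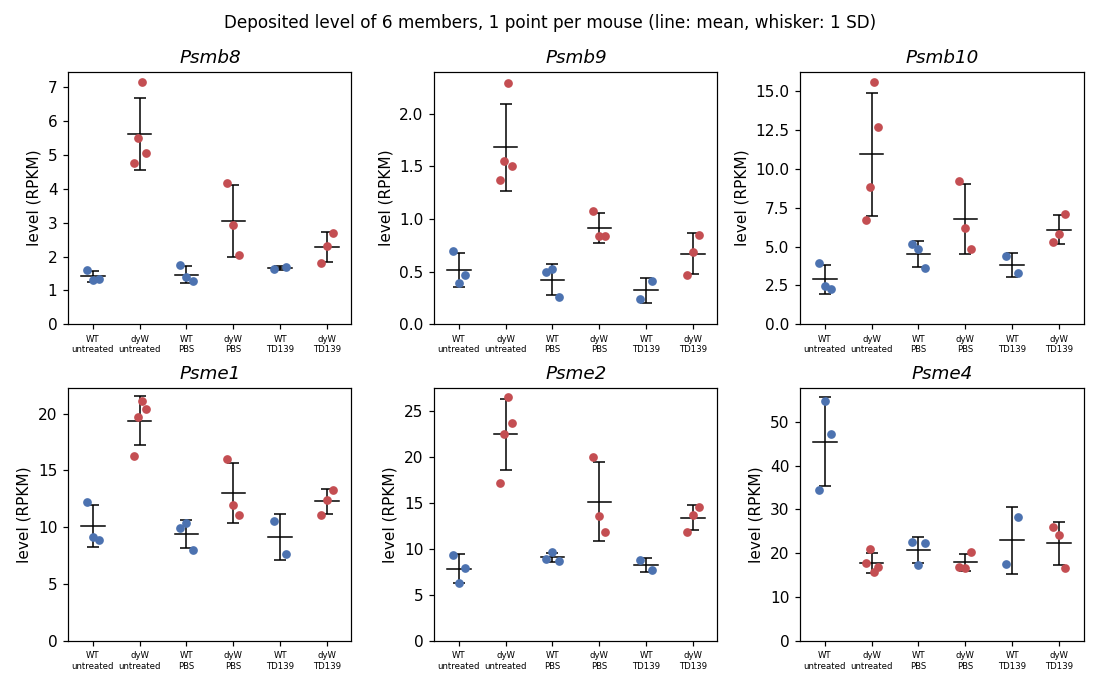
Level in RPKM (linear axis from 0) of the 5 interferon-inducible members and Psme4 in each of the 18 mice, by group; points are mice, the line is the group mean and the whisker 1 SD. The 4 untreated dyW mice lie above the 3 untreated WT mice for the 5 inducible genes and below them for Psme4, where WT mice run from 34.5 to 54.7 and dyW mice from 15.6 to 20.9.

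The constitutive counterparts did not pass the test. Psmb5, the most abundant member in untreated WT muscle, was at 91.4, 75.6 and 80.1 RPKM in WT and 104.8, 134.0, 203.7 and 191.5 in dyW mice. These levels are apart as deposited but overlap after TMM scaling, and Psmb5 had a log2 fold change of 0.39 (SE 0.20, 95% interval -0.07 to 0.84, adjusted p = 0.1361), and passed without dyW replicate 1 (0.54, adjusted p = 0.02135). The value was -0.09 for Psmb6 (SE 0.16, adjusted p = 0.6755) and -0.31 for Psmb7 (SE 0.16, adjusted p = 0.1279). By group mean in untreated WT muscle, Psmd7 (73.3 RPKM) and Psmc5 (69.1 RPKM) followed Psmb5, while Psme1 ranked 35 of 50, Psme2 36, Psmb10 42, Psmb8 45 and Psmb9 47. Psme1 and Psme2 overlapped in their WT values, and Psmb9 lay below Psmb8 and Psmb8 below Psmb10 in every untreated mouse.

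Of the 31 constitutive subunits of the 26S particle (20S and 19S), 0 rose and 4 fell. Of all genes, 24.7% were called higher and 25.1% lower, so these subunits were called less often than genes at large. Psmd1, the large scaffold of the 19S base, fell by 0.70 (SE 0.16, adjusted p = 0.006794), and Psmd6, a lid subunit, fell by 0.54 (SE 0.12, adjusted p = 0.005408). The ATPase Psmc6 fell by 0.40 (SE 0.11, adjusted p = 0.01542) and the alpha ring subunit Psma3 by 0.39 (SE 0.12, adjusted p = 0.02505). These 4 falls depend on the scaling between libraries. Without TMM, in limma on log2(RPKM + 0.1), Psma3 turned to 0.15, Psmc6 to 0.14 and Psmd6 to 0.01, and Psmd1 was at -0.14, with none of them called. Psma3 also lost its call when any 1 of the 3 WT mice or of dyW replicates 1, 2 and 3 was left out (-0.43 to -0.31), and Psmc6 without WT replicate 3 (-0.40, adjusted p = 0.05448) or dyW replicate 2 (-0.34, adjusted p = 0.05046).

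The scale matters for the whole 26S set. As deposited, the geometric mean of the 31 subunits was 36.7 ± 1.48 RPKM in untreated WT (SD, n = 3) and 53.3 ± 7.83 in untreated dyW muscle (SD, n = 4). After TMM scaling it was 46.9 ± 1.75 and 45.8 ± 4.51, and the groups overlapped for 22 of the 31 subunits, with dyW above for 2 (background 25.4% of genes) and below for 7 (background 26.7%). On the log2(RPKM + 0.1) scale 36 of 47 members were called higher and 1 lower, against 7636 and 1293 of 14846 genes. The share of higher among called genes moved from 49.6% to 85.5%, and the median of all genes from 0.03 to 0.51. Relative to that median the inducible genes stayed higher (median 1.53) and the other members were near it (median 0.55).

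**Figure D2:**
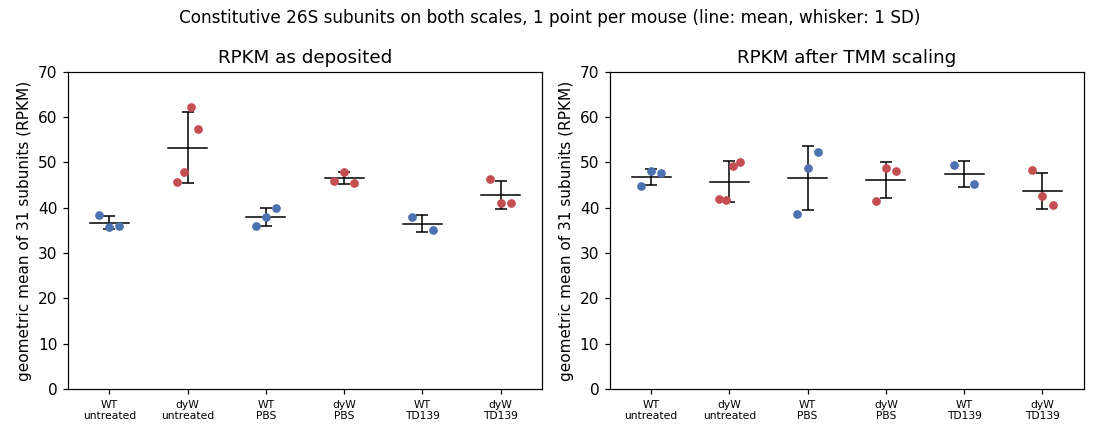
Geometric mean of the 31 constitutive 26S subunits in each mouse, as deposited (left) and after TMM scaling (right), in RPKM on a linear axis from 0; points are mice, the line is the mean and the whisker 1 SD. Untreated dyW mice average 53.3 against 36.7 in WT on the left and 45.8 against 46.9 on the right.

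Among activators, inhibitors and chaperones the changes went both ways. Psme4 (PA200, chr11:30771726-30880361, plus strand) was at 34.5, 54.7 and 47.3 RPKM in untreated WT and 17.7, 20.9, 15.6 and 16.9 in untreated dyW mice, with no overlap. It fell by 1.92 on the log2 scale (SE 0.22, 0.265 of the WT level, adjusted p = 0.0003682), while Psme3, the nuclear PA28 gamma, and the inhibitor Psmf1 were not called. Psmg4, a chaperone of alpha ring assembly, was at 2.84, 2.95 and 2.59 RPKM in WT and 8.79, 7.49, 9.68 and 8.94 in dyW mice. It rose by 1.09 (SE 0.17, 2.13-fold, adjusted p = 0.00132), the only rise outside the inducible 5 besides that of Psmd10. Psmd10, the 19S chaperone gankyrin, was at 4.65, 3.93 and 4.60 RPKM in WT and 6.57, 9.46, 12.6 and 9.71 in dyW mice and rose by 0.56 (SE 0.18, adjusted p = 0.02804). That call was lost without any 1 of the WT mice or without dyW replicate 3 (0.49 to 0.62). The other 5 chaperones were not called. The testis-type alpha subunit Psma8 had 0 to 7 reads per library and the thymus-type beta subunit Psmb11 0 to 3, so both stayed below the count filter in every fit, and Psme2b (0 to 25 reads) stayed below it in untreated mice. Genes of the thymus list were also near 0, with a sum of at most 0.0961 RPKM in any library and Rag2 at 0 reads in all 18.

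**Figure D3:**
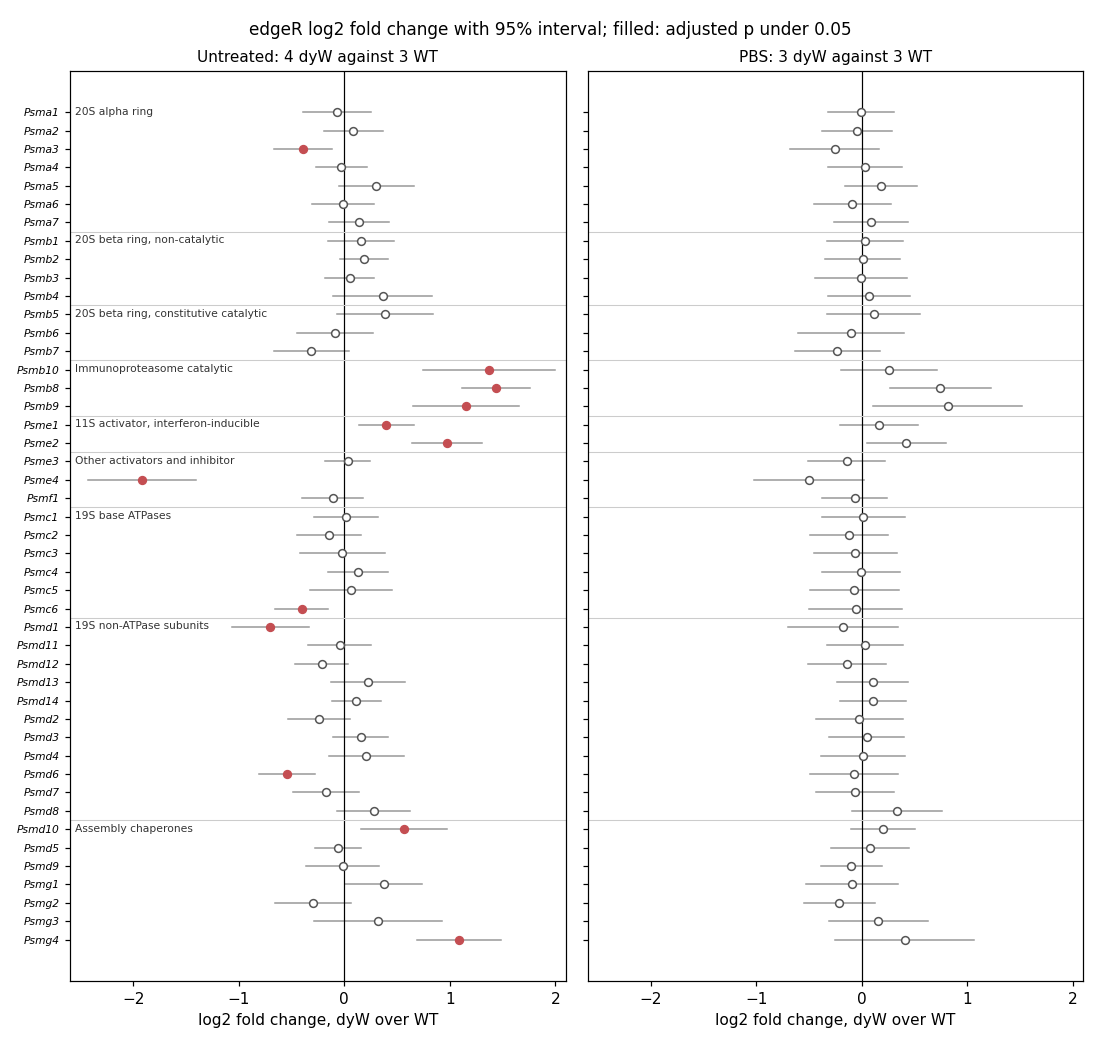
Fitted log2 fold change of dyW over WT with its 95% interval for 46 members by role, untreated (left) and PBS (right); filled red points have an adjusted p under 0.05. In untreated mice the 5 inducible members, Psmg4 and Psmd10 are filled on the right of 0 and Psme4 stands at -1.92, and no point is filled in the PBS mice.

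Markers of some other cell types also changed, and not all in the same direction. All 9 leukocyte and macrophage markers analysed rose in untreated dyW muscle, where 24.7% of all genes were called higher and 25.1% lower, and their summed level was 43.9 to 70.9 RPKM in WT and 353.9 to 430.0 in dyW mice, with none at 0. The summed T and NK cell markers were 0.278 to 1.29 RPKM in WT and 1.86 to 4.10 in dyW mice, and 2 of the 7 tested rose (Cd4 and Klrb1c), while 0 of 3 B cell markers tested were called. Endothelial markers rose for 3 of 5 and fibroblast markers for 2 of 5, and 6 of 8 muscle fibre markers fell (summed level 58469 to 71779 RPKM in WT, 41462 to 54102 in dyW mice). The share of T and NK cell markers that rose was close to that of all genes. On log2(RPKM + 0.1) it was 6 of 7, with 5 of 5 fibroblast markers higher and 3 of 8 fibre markers lower. On that scale 7636 of 14846 genes tested were called higher and 1293 lower. The part of these cell types in the rise of the inducible members was not tested. Across groups the summed level of Psmb8, Psmb9 and Psmb10 was highest in untreated dyW mice (12.8 to 25.0 RPKM), where the leukocyte sum was highest too.

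**Figure D4:**
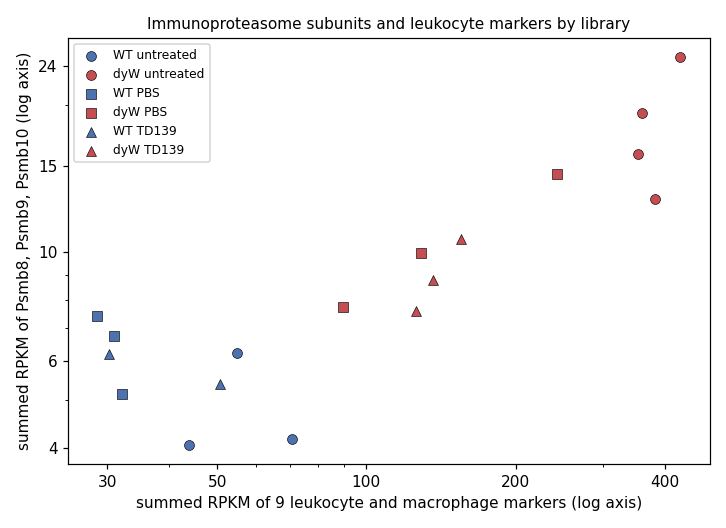
Summed RPKM of Psmb8, Psmb9 and Psmb10 against the summed RPKM of 9 leukocyte and macrophage markers, 1 point per mouse, both axes logarithmic; colour gives the genotype and shape the treatment. Untreated dyW mice lie at 12.8 to 25.0 and 353.9 to 430.0, PBS dyW mice at 7.72 to 14.5 and 89.8 to 242.3, and all WT mice at 4.06 to 7.42 and at most 70.9.

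In the PBS cohort, the 5 inducible members were again above 0 but none of the 48 members tested was called by edgeR, where 2.68% of 15331 genes were (2.40% higher, 0.280% lower). At an unadjusted p under 0.05 there were 3 members, against 2315 of the 15331 genes. DESeq2 called 0 members and 864 genes. Limma called 4 members and 952 genes on log2(RPKM + 0.1), and 2 members and 814 genes on log2(RPKM + 1). The median log2 fold change was 0.42 for the 5 inducible members and -0.02 for the other 43. Psmb8 was at 1.74, 1.40 and 1.27 RPKM in WT and 4.16, 2.94 and 2.05 in dyW mice. The groups did not overlap and the log2 fold change was 0.74 (SE 0.22, adjusted p = 0.1098). Without dyW replicate 3 it was called (0.93, adjusted p = 0.04066), and without dyW replicate 1, the shallowest library, it was 0.54 (adjusted p = 0.3982).

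Psmb9 in the PBS mice was at 0.493, 0.521 and 0.257 RPKM in WT and 1.07, 0.834 and 0.834 in dyW, a log2 fold change of 0.81 (SE 0.32, adjusted p = 0.2511). Psme2 was at 8.91, 9.64 and 8.65 RPKM in WT and 20.04, 13.6 and 11.8 in dyW mice, at 0.42 (SE 0.17, adjusted p = 0.2677). Both were apart between the genotypes as deposited, with dyW above. On that scale the same held for Psmb8, Psme1 and 19 constitutive 26S subunits, while 12 such subunits overlapped. The share of all genes without overlap was not computed for RPKM as deposited. Genes at large lay higher in dyW mice without TMM, with a median of 0.25 on log2(RPKM + 0.1). After TMM scaling Psmb9 and Psme2 remained apart, whereas Psme1 overlapped. Psmb10 was at 5.19, 4.82 and 3.61 RPKM against 9.23, 6.18 and 4.84, which overlap, with a log2 fold change of 0.26 (SE 0.21, adjusted p = 0.612). For Psme1 it was 0.16 (SE 0.17, adjusted p = 0.7133). Leaving out dyW replicate 1 brought Psmb10 to 0.06, Psme1 to 0.06, Psme2 to 0.25 and Psmb9 to 0.75, and leaving out WT replicate 1, the library that stood apart, gave 0.78 for Psmb8, 0.84 for Psmb9, 0.27 for Psmb10, 0.11 for Psme1 and 0.32 for Psme2.

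On TMM-scaled levels, PBS dyW mice were above all WT mice for Psmb8, Psmb9, Psme2 and Psmd10 (background 11.2% of genes) and below them for Psme4 (background 6.50%), and all 31 constitutive 26S subunits overlapped. Psme4 was at 22.6, 17.3 and 22.4 RPKM in WT and 16.9, 16.5 and 20.2 in dyW mice, a log2 fold change of -0.50 (SE 0.24, adjusted p = 0.3587). The constitutive Psmb5, Psmb6 and Psmb7 had log2 fold changes of 0.11, -0.10 and -0.23. Psmg4, the alpha ring chaperone, was at 5.99, 7.16 and 3.67 RPKM in WT and 12.7, 7.97 and 7.15 in dyW mice, which overlap, at 0.41 (SE 0.30, adjusted p = 0.5734). Psmd10 was at 5.21, 4.88 and 4.22 RPKM in WT and 7.36, 6.35 and 6.46 in dyW mice, at 0.20 (SE 0.14, adjusted p = 0.5469). Among the PBS mice, dyW replicate 1 held the highest RPKM of all 5 inducible members and also the highest leukocyte marker sum (242.3 RPKM, against 129.1 and 89.8 in the other dyW and 28.7 to 32.2 in the WT mice). The leukocyte sum and the sum of Psmb8, Psmb9 and Psmb10 ranked mice alike within dyW PBS and dyW TD139, but not within the other groups. WT PBS replicate 1 had the lowest leukocyte sum of its group (28.7 RPKM) and the highest sum of these subunits (7.42). Of the 9 leukocyte markers 8 rose in the PBS dyW mice, where 2.40% of all genes did, and their part in the values of the inducible members was not tested.

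TD139 was set against PBS within each genotype. In dyW mice 0 of 48 members and 0% of 15331 genes were called by edgeR, with 583 genes at an unadjusted p under 0.05 and 4 called by DESeq2, none of them a member in either case. Psmb8 in the TD139-treated dyW mice was at 1.81, 2.31 and 2.70 RPKM, which overlaps the PBS range of 2.05 to 4.16. The log2 fold change was -0.36 (SE 0.22, 95% interval -0.83 to 0.12, adjusted p = 0.8878). For Psmb9 it was -0.40 (95% interval -1.10 to 0.29), for Psmb10 -0.08, for Psme1 -0.03 and for Psme2 -0.11 (95% interval -0.49 to 0.26). Each of these 3 intervals includes no change. The median of the inducible members was -0.11 and that of the other members -0.08. The authors' deposited table of this comparison called 0 of the 50 members, where it called 0.330% of its 20602 genes (0.199% higher, 0.131% lower).

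In WT mice 0 of 48 members and 0% of genes were called between TD139 and PBS by edgeR (304 at an unadjusted p under 0.05, 3 by DESeq2). The values were 0.28 for Psmb8, -0.29 for Psmb9, -0.14 for Psmb10, 0.05 for Psme1 and -0.05 for Psme2. Whether TD139 acted differently in dyW and in WT mice was tested as an interaction, with 0% of genes called (294 at an unadjusted p under 0.05, 1 by DESeq2). For Psmb8 that difference was -0.64 (SE 0.33, 95% interval -1.35 to 0.08, adjusted p = 0.9999), and for the other 4 inducible members it was between -0.12 and 0.06.

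Between genotypes under TD139, 0 of 48 members were called by edgeR, against 1.04% of genes (0.757% higher, 0.287% lower, with 72.5% of those called higher). At an unadjusted p under 0.05 there were 0 members and 2430 genes, and DESeq2 called 0 members. On log2(RPKM + 0.1) 1 member and 552 genes were called, with 94.0% of these genes higher. The 160 genes called by edgeR were 739 with DESeq2, and 6 without WT TD139 replicate 1 and 32 without dyW TD139 replicate 1. All 5 inducible members were above 0, with a median of 0.32 against -0.17 for the other members. Psmb8 was at 1.62 and 1.70 RPKM in WT and 1.81, 2.31 and 2.70 in dyW mice, a log2 fold change of 0.10 (SE 0.25). Psmb9 was at 0.240 and 0.408 RPKM in WT and 0.466, 0.688 and 0.851 in dyW mice, the largest value of the 5 at 0.70 (SE 0.37, adjusted p = 0.3893). Psmb10 was at 0.32 and Psme2 at 0.35, with Psme1 at 0.08. After TMM scaling only Psme2 of the 5 had dyW above all WT mice (background 20.1%), while 10 of the 31 constitutive subunits had dyW below (background 17.5%). The leukocyte sum was 30.2 to 50.7 RPKM in these WT and 126.2 to 155.4 in these dyW mice.

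Whether the genotype effect itself differed between the PBS and the untreated cohort was tested on all 18 libraries. Of 48 members 1 was called, against 1.72% of 15771 genes (1.20% higher, 0.526% lower; 69.5% of the called genes were higher, 58.8% with RLE size factors and 38.7% on log2(RPKM + 0.1)). That share was itself unstable: the 272 genes called were 1189 with DESeq2 and 0 without any 1 of WT untreated replicate 3, dyW untreated replicate 3 and dyW PBS replicates 2 and 3. That member was Psme4, whose genotype effect was 1.43 higher with PBS (SE 0.34, 95% interval 0.71 to 2.15, adjusted p = 0.04607). The level differed mainly between the WT groups, with 34.5 to 54.7 RPKM untreated and 17.3 to 22.6 with PBS, against 15.6 to 20.9 and 16.5 to 20.2 in dyW mice. The call depended on the setting and was lost with RLE size factors (1.38, adjusted p = 0.05313) and without WT untreated replicates 2 or 3, dyW untreated replicates 2, 3 or 4, WT PBS replicates 1 or 2, or dyW PBS replicates 2 or 3 (1.23 to 1.44).

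All 5 inducible members had a smaller genotype effect with PBS, by a median of -0.54, and none of them was called. The largest difference was that of Psmb10 at -1.10 (SE 0.35, adjusted p = 0.08867), which DESeq2 called (-1.15, adjusted p = 0.03203), as did edgeR without dyW untreated replicate 1 (-1.32, adjusted p = 0.0406). For Psmb8 it was -0.68 (SE 0.26, adjusted p = 0.1342), for Psme2 -0.54 (adjusted p = 0.1635), for Psmb9 -0.33 and for Psme1 -0.23. The constitutive Psmb5 was at -0.26, Psmb6 at 0.00 and Psmb7 at 0.09.

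Within a library, the ratio of an inducible catalytic subunit to the one it replaces does not depend on scaling between libraries. All 3 ratios were higher in dyW mice over the 18 libraries, by an exact two-sided permutation test within the untreated, PBS and TD139 mice (7000 relabelings, adjusted over the 3 pairs). Psmb9 over Psmb6 was 1.10 higher on the log2 scale (2.15-fold, exact p = 0.0002857, adjusted 0.0008571), Psmb10 over Psmb7 0.98 higher (1.97-fold, exact p = 0.0008571, adjusted 0.001286) and Psmb8 over Psmb5 0.68 higher (1.60-fold, exact p = 0.003714, adjusted 0.003714). The constitutive subunit was the more abundant RNA of its pair in every mouse, and the highest inducible share was 19.3%, for Psmb10 in an untreated dyW mouse.

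As a share of the pair's RPKM, Psmb8 made up 1.69% ± 0.0467 in untreated WT (SD, n = 3) and 3.57% ± 0.774 in untreated dyW muscle (SD, n = 4). Psmb9 made up 1.02% and 2.41% of its pair, and Psmb10 5.93% and 16.6%. In untreated mice each ratio was apart between genotypes, 2.12-fold for Psmb8, 2.41-fold for Psmb9 and 3.19-fold for Psmb10, each with an exact permutation p = 0.02857, the smallest that 35 relabelings allow. With PBS the mean shares in WT and dyW were 1.30% and 1.88% for Psmb8, 0.650% and 1.16% for Psmb9, and 9.22% and 12.4% for Psmb10. The exact permutation p was 0.2, 0.1 and 0.5 in that order, where 0.1 is the smallest these groups allow. With TD139 the shares were 1.50% and 1.77%, 0.525% and 1.04%, and 7.98% and 11.9%, with an exact permutation p = 0.5, 0.3 and 0.1, where 0.1 is again the smallest. When the untreated mice were left out, the difference was 0.42 for Psmb8 over Psmb5 (adjusted p = 0.105) and 0.54 for Psmb10 over Psmb7 (adjusted p = 0.075, both by the exact permutation test), so those calls rest on the untreated mice.

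**Figure D5:**
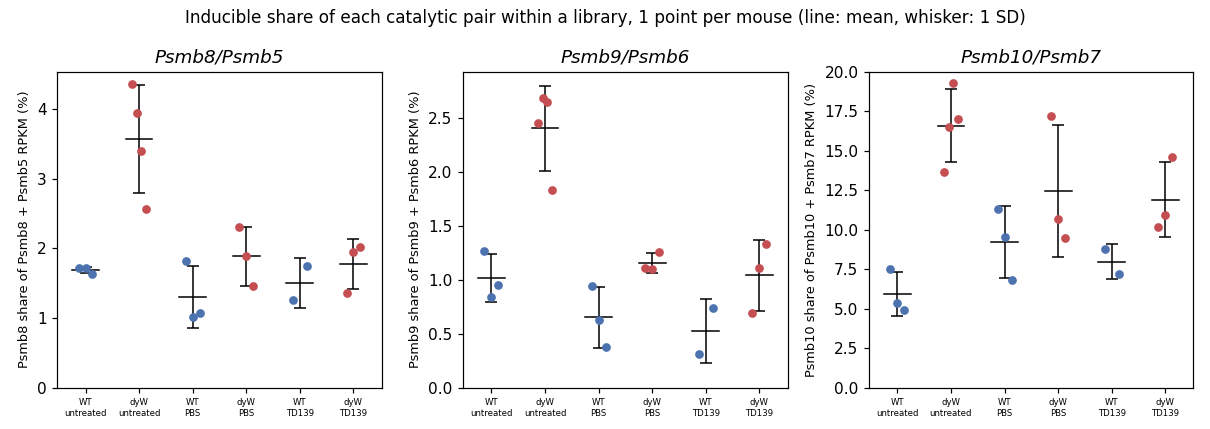
Share of each inducible catalytic subunit in the summed RPKM of its pair, in percent on a linear axis from 0, 1 point per mouse; the line is the group mean and the whisker 1 SD. Untreated dyW mice average 3.57% for Psmb8, 2.41% for Psmb9 and 16.6% for Psmb10, against 1.69%, 1.02% and 5.93% in untreated WT mice.

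The genes that handle the peptides made by the proteasome were examined next. Of 12 class I peptide loading genes, 9 rose and 1 fell in untreated dyW muscle, against 24.7% and 25.1% of all genes, with a median log2 fold change of 1.01. Tap1, which shares its upstream stretch with Psmb9, was at 0.639 ± 0.154 RPKM in WT (SD, n = 3) and 2.55 ± 0.322 in dyW mice (SD, n = 4) and rose by 1.45 (SE 0.18, adjusted p = 0.0004134). Its partner in the peptide transporter, Tap2, rose by 1.44 (SE 0.15, adjusted p = 0.0002282), the bridging protein Tapbp by 1.11 and the class I heavy chain H2-D1 by 1.16. Erap1, the peptidase that trims peptides in the endoplasmic reticulum, fell by 0.58 (adjusted p = 0.01518), a call lost on log2(RPKM + 0.1) (-0.05) and without dyW replicate 3 (-0.47, adjusted p = 0.05451). With PBS, 3 of the 12 rose and 0 fell, where 2.40% of all genes rose, at a median of 0.49: H2-D1 by 1.14 (adjusted p = 0.007654), B2m, the class I light chain, by 1.02 (adjusted p = 0.008438) and H2-K1 by 0.99 (adjusted p = 0.01023; 0.90 and 0.05188 without WT PBS replicate 3), while Tapbp was at 0.53 (adjusted p = 0.08064). None was called between genotypes under TD139, where 1.04% of all genes were, or between TD139 and PBS in dyW mice, where 0% were. Between genotypes under TD139 B2m was at 0.84 (edgeR, adjusted p = 0.05091), and only Calr of the 12 was below 0 (-0.09).

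Of 14 interferon signalling genes tested, 4 rose and 3 fell in untreated dyW muscle, a share called that is close to the 49.8% of all genes, while Ifng and Ifnb1, the interferon genes on the list, had too few reads to test. On log2(RPKM + 0.1) 11 rose and 2 fell, where 7636 of 14846 genes rose and 1293 fell. The kinases Jak2 and Jak1 fell by 1.52 (adjusted p = 0.0003415) and 1.34 (adjusted p = 0.0006638) and the receptor chain Ifngr2 by 0.66 (adjusted p = 0.001366; -0.11 and not called on log2(RPKM + 0.1)), whereas the receptor chain Ifnar2 rose by 1.24 (adjusted p = 0.0006638). The transcription factors Irf8, Irf7 and Irf1 also rose in untreated dyW muscle, by 1.00 (adjusted p = 0.002297), 0.96 (adjusted p = 0.0262) and 0.84 (adjusted p = 0.02138). With PBS only Irf7, an interferon-induced transcription factor, rose, by 1.43 (SE 0.26, adjusted p = 0.015), where 2.40% of all genes rose. That call was lost without dyW PBS replicate 1 or WT PBS replicate 3 (1.29 in both). Irf8 was at 1.00 with PBS (adjusted p = 0.07438), Irf1 at 0.42 and Irf9 at 0.51.

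Genes that act on proteasome supply came next. Of 8 genes around Nrf1, the factor that raises proteasome genes when the proteasome is short, 1 rose and 4 fell in untreated dyW muscle, where 24.7% of all genes rose and 25.1% fell. On log2(RPKM + 0.1) 4 rose and 1 fell, where 7636 of 14846 genes rose and 1293 fell, so the share that rose was close to that of all genes. Nfe2l1, which encodes Nrf1, was at 0.03 (0.58 and called on log2(RPKM + 0.1)), whereas Ddi2, the protease that activates it, fell by 1.45 (adjusted p = 0.0004984) and Ngly1, which strips its glycans, by 0.70 (adjusted p = 0.002012; -0.16 and not called on log2(RPKM + 0.1)). Vcp, which extracts Nrf1 from the membrane, fell by 0.45 (adjusted p = 0.03187), a call that was lost without any 1 of WT replicates 2 and 3 and the 4 dyW mice (-0.44 to -0.35) and turned to 0.11 on log2(RPKM + 0.1). Nfe2l3, the related factor Nrf3, rose by 3.47 from a low level (0.0241 RPKM in WT, 0.389 in dyW mice, adjusted p = 0.0008849). With PBS it rose by 2.87 (adjusted p = 0.02841), the only one of the 8 called there, where 2.68% of all genes were. That PBS call was lost without any 1 of the 3 WT mice or of dyW replicates 1 and 2 (2.41 to 2.95). Of 11 other proteasome partners 0 rose and 3 fell in untreated mice, a share lower that is close to that of all genes, led by AI314180, the gene of the proteasome adaptor Ecm29, which fell by 1.89 (SE 0.14, adjusted p = 0.0001156), with Ubqln4 and Usp14 at -0.44 and -0.33. On log2(RPKM + 0.1), where 7636 of 14846 genes rose and 1293 fell, 7 of the 11 rose and 1 fell. There Ubqln4 was at 0.12 and Usp14 at 0.22. Both also lost their call without WT replicate 2 or 3, and Usp14 without dyW replicate 2, 3 or 4. Pomp, the chaperone needed to build new 20S particles, was at 0.36 (adjusted p = 0.1926), and at 0.86 and called on log2(RPKM + 0.1). None of the 11 was called with PBS, where 2.68% of all genes were.

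The muscle ligases tag proteins for the proteasome. Of 10 muscle ligases and FoxO factors 1 rose and 5 fell in untreated dyW muscle, where 49.8% of all genes were called. On log2(RPKM + 0.1) 2 rose and 1 fell, where 7636 of 14846 genes rose and 1293 fell. Traf6 fell by 1.02 (adjusted p = 0.0004883), Fbxo32 by 0.69 (adjusted p = 0.004924), Fbxo31 by 0.64 and Fbxo30 by 0.33, and Trim63 was at -0.25 (adjusted p = 0.1638). On log2(RPKM + 0.1) Fbxo32, Fbxo31 and Fbxo30 were at -0.13, -0.10 and 0.21, none of them called. Fbxo30 also lost its call in 7 settings that kept its direction (-0.35 to -0.29). Fbxo32 lost its call in 3 settings in all (-0.70 to -0.12). Fbxo21 was the 1 that rose, by 1.30 (adjusted p = 0.0282), a call lost without any 1 of the 3 WT mice or dyW replicate 2 (1.18 to 1.33). With PBS 0 of these 10 genes were called, where 2.68% of all genes were.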

How the data were processed

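Bulk RNA-seq of quadriceps from 18 mice was used. Per the labels, RNA came from a TRIzol extraction; libraries were made from 1 ug with Illumina's Stranded mRNA kit and sequenced as 58 bp pairs on a NextSeq 2000. The build is mm10, per the submitters' processing notes; aligner and counter are not given in the sources used here, nor whether a count is a read or a pair. Per the file headers, the authors deposited for each library total and unique exon read counts per gene and RPKM. The authors also deposited tables of comparisons with log2 fold changes and p-values, raw and FDR-adjusted, with the test not stated.

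Total counts were tested with edgeR 4.0.16 (R 4.3.3): TMM, filterByExpr (minimum count 10, minimum total 15), quasi-likelihood F-test, Benjamini-Hochberg over all genes tested, threshold 0.05. The 7 untreated libraries were fitted alone, the 11 treatment libraries as 4 groups, and all 18 for the difference between cohorts. Replicates are separate mice, and their numbers do not pair them. Levels are deposited RPKM as mean and SD. RPKM carries no correction for composition, so TMM-scaled levels are given beside it. Alternatives were DESeq2 1.42.0, RLE, no filter, unique reads, limma 3.58.1 on log2(RPKM + 0.1) and log2(RPKM + 1), sex as a term, other libraries in the fit, and each library left out. The edgeR script was tested on simulated data.

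Members, lists and tests were chosen with earlier results of these data known; 1 pathway list is not reported here. Named are the 5 inducible and 3 constitutive catalytic members, up to 6 other called members per direction, members filtered out or reversed by scaling, and up to 4 genes per list with the smallest p in the untreated and in the PBS comparison; Erap1, Nfe2l1, Pomp, Cd4, Klrb1c, Psmd7, Psmc5, Psme3 and Psmf1 were named after their values were seen.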

Additional observations from a re-analysis of the deposited data

Results flagged for a closer look

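The genotype effect, dyW over WT, differed between the PBS and the untreated mice for 1 proteasome gene and 3 genes of the related lists in edgeR's interaction test over 18 libraries, with Benjamini-Hochberg adjustment. Of all 15771 genes tested 1.72% were called, and the 1 of 48 members is close to that share. Psme4 had a log2 difference of 1.43 (adjusted p = 0.04607). AI314180, the gene of Ecm29, had a difference of 1.36 (adjusted p = 0.03694), with mean levels of 32.8 RPKM in untreated WT, 12.9 in untreated dyW, 19.9 in WT PBS and 16.7 in dyW PBS mice. Ddi2 had one of 1.23 (adjusted p = 0.04145), with 11.5, 6.14, 7.88 and 8.16 RPKM in the same order. Jak2 had one of 1.19 (adjusted p = 0.03698), with 11.5, 5.89, 6.14 and 5.89 RPKM. All 4 calls were lost without any 1 of WT untreated replicates 2 and 3, dyW untreated replicates 2, 3 and 4, WT PBS replicates 1 and 2, and dyW PBS replicates 2 and 3, with differences of 1.22 to 1.39 for AI314180, 1.02 to 1.26 for Ddi2 and 1.06 to 1.22 for Jak2. They were also lost on log2(RPKM + 0.1), where AI314180 was at 1.08, Ddi2 at 0.95 and Jak2 at 0.90, and for 4 of these libraries, leaving out that 1 left no gene tested called. Cohort, handling and age label cannot be told apart in these differences. No mouse stood apart from its group in the 18 results tested for it in the untreated dyW mice, the only group of 4.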

How the results depend on the processing

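Results were recomputed with the alternatives listed under processing. The RPKM scale moved the counts most: the untreated mice gave 37 called members with limma on log2(RPKM + 0.1) and 35 on log2(RPKM + 1), the PBS mice 4 and 2, and the genotypes under TD139 1 on the first. Among all genes, those scales called 8929 and 8722 of 14846 in the untreated mice. On these 2 scales Psma3 reversed to 0.15 and 0.15, Psmc6 to 0.14 and 0.14, and Psmd6 to 0.0091 and 0.009, and among the list genes Vcp to 0.112 and 0.111, Ubqln4 to 0.1163 and 0.1116, Usp14 to 0.2208 and 0.1969, and Fbxo30 to 0.2102 and 0.1694. For the difference between cohorts DESeq2 called 2 members, and 0 were called with RLE size factors, with limma on either scale, with sex as a term and with only the 4 untreated and PBS groups in the fit. Without 1 library the count ran from 8 to 15 in untreated mice, from 0 to 1 with PBS and from 0 to 2 for the difference between cohorts. The pair ratios ran from 0.61 to 0.76 for Psmb8 over Psmb5, 0.96 to 1.25 for Psmb9 over Psmb6 and 0.89 to 1.07 for Psmb10 over Psmb7, with adjusted exact permutation p up to 0.008214. Leaving out the untreated mice gave 0.42 and 0.54 for the first and the last, no longer past the threshold. Of the counts of called members and the pair ratios, 96 values without 1 library and 55 under other settings stayed the same, while 11 and 11 moved. A count was taken as the same if it equalled or lay close to the main count, and many were 0 in both. A ratio was the same if it kept its direction and side of the threshold. Among the single members followed, 23 values lost their call without 1 library. Under other settings 8 lost it and 6 reversed. Over all genes, DESeq2 called 685 higher and 179 lower with PBS against 368 and 43 by edgeR, 476 and 263 under TD139 against 116 and 44, and 636 and 553 for the difference between cohorts against 189 and 83. Limma on log2(RPKM + 0.1) called 952 genes with PBS, 552 under TD139 and 75 for that difference. Without 1 library edgeR called 5792 to 7713 genes in untreated mice, 125 to 601 with PBS (fewest without WT PBS replicate 3), 6 to 91 under TD139 and 0 to 637 for the difference between cohorts. No paired analysis was possible because replicate numbers only name mice and the labels pair none. Depth limits Psmb9, at 0.240 to 2.29 RPKM, more than the abundant subunits. With 2 to 4 mice a group, intervals under PBS and TD139 were wide.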
